A study of Homo sapiens with 134 samples.

Results

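Heat shock proteins and the chaperones that work with them are described here through 34 listed genes. They cover the HSP70 and HSP110 families, HSP90 and its co-chaperones, the small heat shock proteins, the J proteins, the exchange factor BAG3, the heat shock transcription factors, the mitochondrial chaperonin, the collagen chaperone SERPINH1 and the 8 subunits of the cytosolic chaperonin TRiC. Each gene was represented by the probe with the highest mean log2 signal over all arrays, so no response to radiation entered the choice of probe. The genes themselves were listed with earlier results of these data known. A named probe was found for 32 of the 34 genes among the 48701 probes of the array, while no probe named AHSA1 or HSF2. Of these 32, 30 genes lay above the filter on dim probes at a mean log2 signal of 6.23 and were tested. HSPB8 at 6.12 and DNAJA4 at 6.09 lay just below it, and CRYAB at 6.60 was the dimmest gene above it.

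The cells were HBEC3KT, a single line of human bronchial epithelial cells immortalized with CDK4 and hTERT, and every group came from this line and carried both genes. Cells were irradiated with 56Fe ions at 1 or 0.5 Gy, with 28Si ions at 1 or 0.5 Gy, or with γ-rays at 3 or 1 Gy, and were collected after 1, 4, 12 and 24 h. Mock-irradiated cells were collected at the same times, and reference cells were collected at 0 h, before irradiation. The sample labels write x-ray for the third radiation, which was taken as γ-rays because the study's methods describe a γ-ray source. A run is 1 radiation type in 1 exposure campaign, named here by the campaign code of the labels (56Fe 08A, 08C and 09C; 28Si 09A, 09B and 09C; γ 08C, 09A and 09C), so that each radiation type had 3 runs and mock-irradiated and reference cells had 9. Runs of different radiation types shared the campaigns 08C, 09A and 09C. In the course over time such runs were counted as separate, and the campaign was not fitted. The 134 arrays held 71 irradiated, 36 mock-irradiated and 9 reference samples, since some samples were hybridized more than once. No 0.5 Gy sample at 12 h belonged to the run 56Fe 08A. All p-values below measure the spread between runs of a single cell line. The exception is the setting with the chip as a random block, where single arrays were the observations.

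Median raw signals of the arrays were 46.2 to 104.1 for irradiated cells, 45.8 to 102.2 for mock-irradiated cells and 51.4 to 115.8 for reference cells. The basal airway markers KRT5, LAMB3 and KRT14 were bright, at mean log2 signals of 13.2, 13.2 and 12.7. EPCAM was at 9.66, CDH1 at 7.36 and ITGA6 at 6.53, and KRT17 and TP63 had no named probe. The markers of fibroblasts, leukocytes, endothelium and differentiated airway cells lay between 5.89 and 6.71, near the dim-probe filter. In these bulk samples, fewer cells with a transcript and less of the transcript per cell cannot be told apart.

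Heat shock proteins bind unfolded protein chains and help them to fold or to be degraded. HSP70 works in cycles of ATP that J proteins start and exchange factors end, HSP90 finishes the folding of kinases and steroid receptors with the help of its co-chaperones, and TRiC is a double ring that folds actin and tubulin. Many of these genes are induced together by the transcription factor HSF1, which binds inverted repeats of the unit nGAAn, the heat shock element, when unfolded proteins accumulate.

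The stretches of 250 bases before the start site are printed for 5 genes on which the results turn, to show how differently such repeats are spread over promoters whose transcripts followed a like course. The sequences are those of RefSeq (GRCh38.p14), and capitals mark matches to GAANNTTC or TTCNNGAA, the 2 ways in which neighbouring units can face each other. Each of these motifs reads the same on both strands, and matches can overlap. HSPA1A, which encodes the stress-inducible HSP70, held 1 match in chr6:31815293-31815542 on the plus strand. HSPA8, which encodes the constitutive HSP70, held 4 matches in chr11:123062137-123062386 on the minus strand. CHORDC1, an HSP90 co-chaperone, held 6 matches in chr11:90223050-90223299 on the minus strand. HSP90AA1, the inducible HSP90, held 3 matches in chr14:102087045-102087294 on the minus strand. This was its start site with the most matches, and the stretch chr14:102139700-102139999 at a further start site held 0. HSPH1, an HSP110 that acts as an exchange factor of HSP70, held 0 matches in chr13:31162389-31162638 on the minus strand, although its transcript is among those that changed most.
HSPA1A: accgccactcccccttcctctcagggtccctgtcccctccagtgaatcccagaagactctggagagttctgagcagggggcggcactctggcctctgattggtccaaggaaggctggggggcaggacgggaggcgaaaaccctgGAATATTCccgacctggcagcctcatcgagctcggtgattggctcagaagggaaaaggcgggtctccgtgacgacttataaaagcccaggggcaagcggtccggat
HSPA8: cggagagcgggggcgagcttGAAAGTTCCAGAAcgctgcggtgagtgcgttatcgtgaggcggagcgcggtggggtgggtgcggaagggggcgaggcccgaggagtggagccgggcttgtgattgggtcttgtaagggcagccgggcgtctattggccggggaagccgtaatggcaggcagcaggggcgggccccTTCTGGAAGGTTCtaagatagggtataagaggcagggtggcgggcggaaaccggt
CHORDC1: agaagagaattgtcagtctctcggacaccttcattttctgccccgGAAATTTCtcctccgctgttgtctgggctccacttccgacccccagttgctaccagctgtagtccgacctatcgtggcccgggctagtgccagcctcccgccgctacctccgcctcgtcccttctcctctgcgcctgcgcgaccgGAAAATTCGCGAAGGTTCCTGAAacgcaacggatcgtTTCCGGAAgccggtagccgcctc
HSP90AA1: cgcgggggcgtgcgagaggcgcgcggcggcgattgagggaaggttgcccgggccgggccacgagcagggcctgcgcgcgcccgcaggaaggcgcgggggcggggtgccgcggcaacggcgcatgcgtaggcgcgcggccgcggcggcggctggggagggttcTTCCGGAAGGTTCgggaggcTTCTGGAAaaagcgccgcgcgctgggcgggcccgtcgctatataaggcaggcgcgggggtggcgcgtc
HSPH1: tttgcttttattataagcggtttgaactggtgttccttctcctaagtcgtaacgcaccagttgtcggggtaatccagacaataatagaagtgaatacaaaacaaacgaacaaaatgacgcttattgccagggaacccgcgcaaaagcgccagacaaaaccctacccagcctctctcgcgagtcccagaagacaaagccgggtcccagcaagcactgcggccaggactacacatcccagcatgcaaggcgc

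Start sites in RefSeq's promoter table were found for 30 of the listed genes, with 47 start sites in all, and FKBP4, CRYAB, CCT6A and HSF1 had no entry. Over windows of 300 bases, 250 before and 50 after the start, 21 of the 47 start sites (44.7%) held a match, against 4737 of 35116 start sites of all genes (13.5%). At least 2 matches were held by 11 of the 47 (23.4%), against 601 of all start sites (1.71%). By gene, 20 of 30 (66.7%) held a match at any start site, against 4417 of 27305 genes (16.2%). With regard to the course described next, a match was held by 8 of 13 genes that fell between 12 h and 24 h in mock-irradiated cells (61.5%) and by 10 of the other 13 tested genes with an entry (76.9%). A match is a run of letters and was not tested as a binding site.

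The largest changes of these genes were those over time, which cells showed without irradiation. In mock-irradiated cells, 11 genes, among them HSPA1A, HSPA1B, HSPA8, HSPH1, HSP90AA1, CHORDC1 and DNAJA1, were higher at 12 h than in reference cells and then fell by 24 h. Both calls rest on the same 12 h samples, so they are not independent. The share of all tested probes with both calls was not counted. The 2 tested small heat shock proteins, HSPB1 and CRYAB, rose between 12 h and 24 h. Of the 8 TRiC subunits 2 were higher at 12 h and 4 fell afterwards, with CCT3 the one in both counts. Over the 4 times together, 19 of the 30 genes differed from the reference by limma's F test at an adjusted p under 0.05, where 22.6% of all 24350 tested probes did. The genes are bright, and among the 1488 probes at or above their median level of 11.2 the share was 30.7%. The 19 were 5 of 6 HSP70 and HSP110 genes, 1 of 2 HSP90 genes, 2 of 3 HSP90 co-chaperones, 6 of 8 TRiC subunits, 1 of 4 J proteins, BAG3, HSF1, HSPE1 and HSPB1. The number was 7 when arrays were scaled only to a common median (CCT2, CHORDC1, DNAJA1, HSPA1A, HSPA1B, HSPA8 and HSPH1) and 12 without the run as a block.

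**Figure D1:**
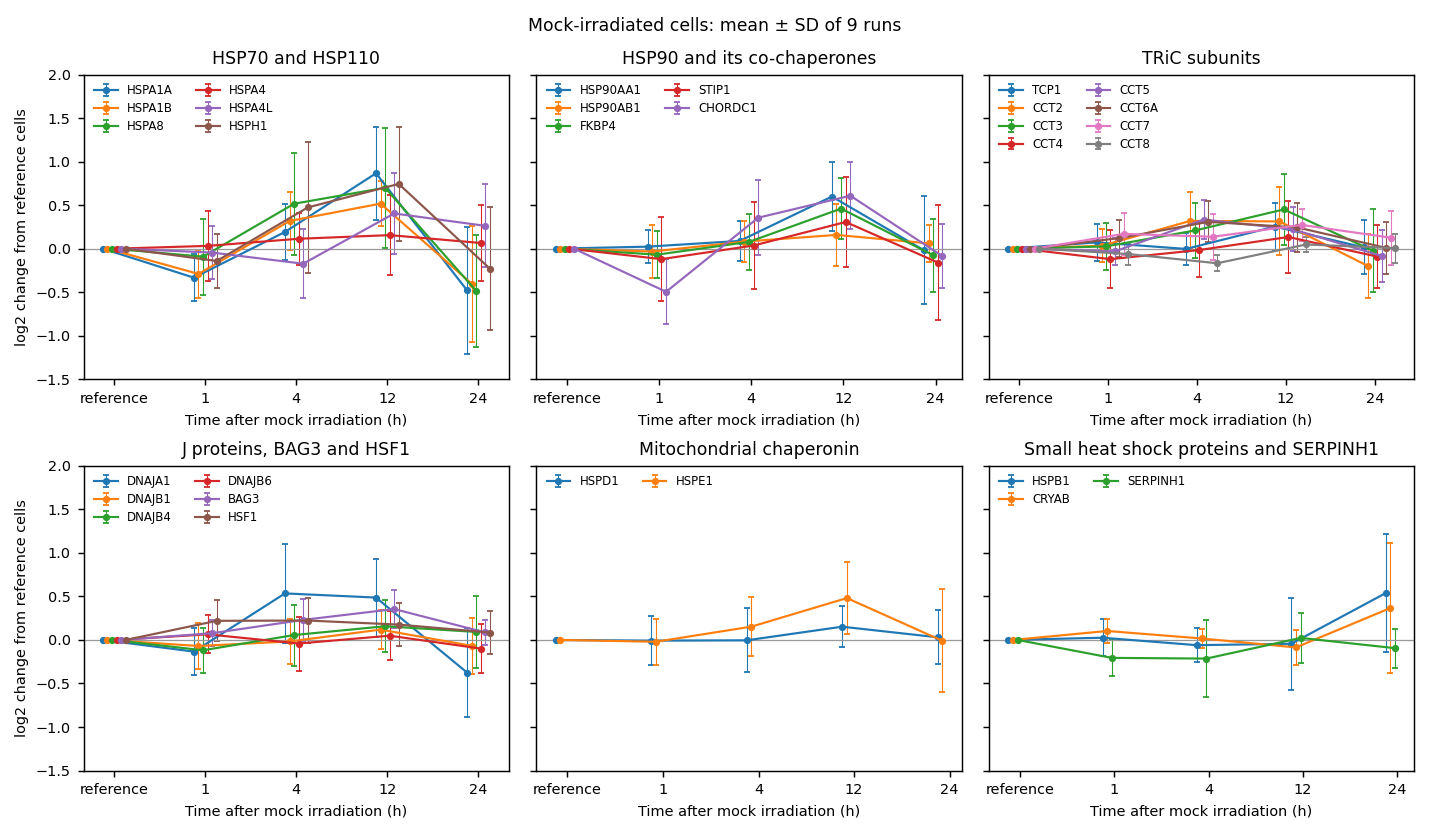
Level of 30 genes in mock-irradiated cells relative to reference cells at 1, 4, 12 and 24 h after mock irradiation (x axis, not to scale), on the log2 scale (y axis), by role; points are means and bars SD over 9 runs. HSPA1A was at 0.87 at 12 h and at -0.48 at 24 h, while HSPB1 was at -0.04 at 12 h and at 0.54 at 24 h.

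The step between 12 h and 24 h was the most uniform. In mock-irradiated cells 28 of the 30 genes were below 0 in this step, with a median of -0.24 (all tested probes 0.0012), 15 fell and 2 rose at an adjusted p under 0.05. Of all tested probes, 7.04% fell and 5.92% rose, and among the bright probes 13.9% fell and 9.34% rose. In single runs, 18 to 29 of the 30 genes were below 0. Scaling to a common median left 28 of 30 below 0, but only 4 called, HSPA1A, HSPA1B, HSPA8 and DNAJA1, and without the run as a block 12 were called, all of them lower.

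Among the HSP70 genes, HSPA1A had the largest step. Its mean log2 level was 10.3 ± 0.37 in reference cells, and 9.99 ± 0.37, 10.5 ± 0.25, 11.2 ± 0.54 and 9.85 ± 0.62 in mock-irradiated cells at 1, 4, 12 and 24 h (SD, n = 9 runs each). The step between 12 h and 24 h was -2.47 in the lowest run, -1.34 in the median run and -0.45 in the highest, below 0 in 9 of 9 runs, although the levels at both times overlapped between runs. The mean step of -1.34 ± 0.62 is a 2.54-fold decrease (limma, adjusted p = 6.35e-06). HSPA8 stood at 13.5 ± 0.45 in reference cells and at 13.4 ± 0.36, 13.97 ± 0.16, 14.2 ± 0.38 and 13.0 ± 0.44 at the same times, and its step was -1.55 in the lowest run, -1.24 in the median run and -0.56 in the highest (mean -1.18, 2.27-fold, adjusted p = 6.64e-05).

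HSPA1B encodes a protein almost identical to that of HSPA1A, and the transcripts of these neighbouring genes on chromosome 6 may share signal on this array. Its step was -0.92 ± 0.54 (1.89-fold, adjusted p = 0.00022), from -1.85 in the lowest run to -0.38 in the highest. HSPH1 had a step of -0.97 ± 0.38 (1.96-fold, adjusted p = 0.0013), with -1.60 in the lowest run, -0.99 in the median run and -0.50 in the highest. Both were below 0 in every run. HSPA4, another HSP110, had a step of -0.09 ± 0.23 that did not pass the test, and HSPA4L one of -0.14 ± 0.31, so that 4 of the 6 genes of the family fell.

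The partners of HSP70 were less uniform. DNAJA1, a J protein that brings clients to HSP70, had a step of -0.86 ± 0.35, between -1.42 and -0.46 in all 9 runs (1.82-fold, adjusted p = 0.00034). The other J proteins did not pass the test, with mean steps of -0.19 for DNAJB1, -0.15 for DNAJB6 and -0.07 for DNAJB4. BAG3, an exchange factor that links HSP70 to autophagy, had a step of -0.27 ± 0.20 (adjusted p = 0.0050), below 0 in 8 of 9 runs. HSF1 was at -0.09 ± 0.13 and did not pass.

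Of the HSP90 genes, the inducible HSP90AA1 had a step of -0.62 ± 0.43 (1.53-fold, adjusted p = 0.0031), which was 0.00 in 1 run and below 0 in 8. The constitutive HSP90AB1 had a step of -0.10 ± 0.21 and did not pass, and the difference between these genes was not tested. All 3 tested co-chaperones fell. CHORDC1 had a step of -0.69 ± 0.14, the tightest of the large steps, at -0.96 in the lowest run, -0.63 in the median run and -0.57 in the highest (adjusted p = 0.0014). FKBP4, a peptidyl-prolyl isomerase of the steroid receptor complexes, was at -0.54 ± 0.27 (adjusted p = 0.0012), and STIP1, which joins HSP70 to HSP90, at -0.47 ± 0.39 (adjusted p = 0.049).

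TRiC is built from 8 different subunits, and 4 of them fell between 12 h and 24 h. CCT2 had a mean step of -0.51, CCT3 one of -0.47, CCT5 one of -0.31 and CCT6A one of -0.23, with adjusted p-values of 0.0012, 0.0043, 0.0065 and 0.039. CCT2 and CCT3 were below 0 in 9 of 9 runs. TCP1 at -0.24, CCT4 at -0.23, CCT7 at -0.15 and CCT8 at -0.04 did not pass. Second probes of these genes did not always give like values. At 24 h against the reference, a comparison in which no gene was called, a second CCT6A probe was at 0.22 and the chosen one at 0.0089, and a second TCP1 probe was at 0.28 and the chosen one at 0.015, while those of CCT7 were at 0.10 and 0.13. Of the mitochondrial chaperonin, HSPE1, the lid of the complex, had a step of -0.49 ± 0.40 (adjusted p = 0.0089, below 0 in 8 of 9 runs), while HSPD1, the ring, was at -0.12 ± 0.16 and did not pass.

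The 2 genes that rose encode small heat shock proteins, which hold unfolded proteins without using ATP. HSPB1 stood at 12.5 ± 0.56 in reference cells, and at 12.6 ± 0.51, 12.5 ± 0.55, 12.5 ± 0.52 and 13.1 ± 0.87 in mock-irradiated cells at 1, 4, 12 and 24 h. Its step was 0.11 in the lowest run, 0.43 in the median run and 1.29 in the highest, above 0 in 9 of 9 runs (mean 0.58, adjusted p = 0.0088). CRYAB, close to the dim-probe filter, was above 0 in 7 of 9 runs, at -0.06 in the lowest, 0.23 in the median and 1.80 in the highest run (mean 0.45, adjusted p = 0.032). HSPB1 was not called without the run 28Si 09A (adjusted p = 0.056) or without the run as a block, and CRYAB was not called without 28Si 09A, 56Fe 09C, γ 09A or γ 09C, nor with the dim probes included.

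**Figure D2:**
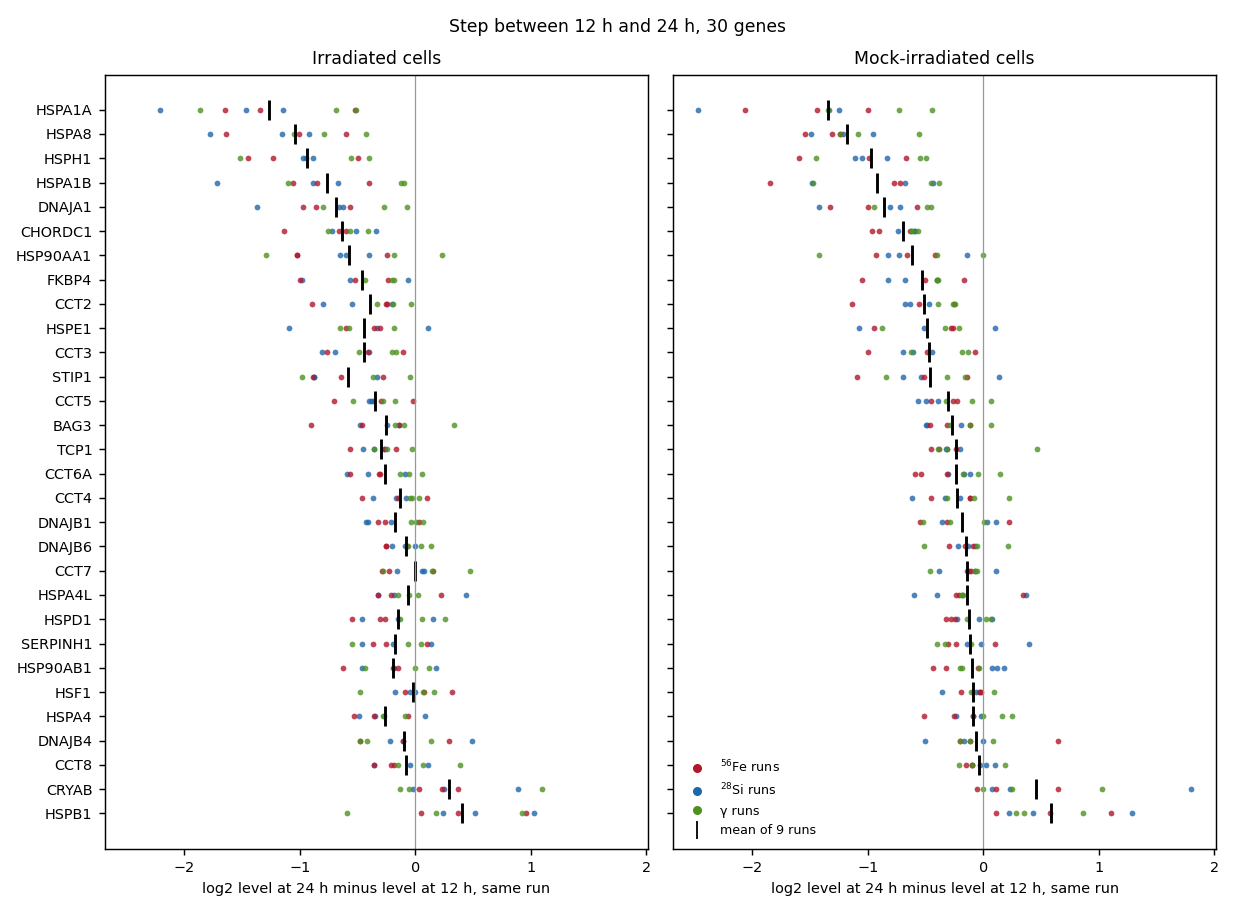
Step between 12 h and 24 h in the same run (x axis, log2 level at 24 h minus log2 level at 12 h) for 30 genes (y axis, ordered by their mean in mock-irradiated cells), in irradiated cells (left) and mock-irradiated cells (right); points are runs coloured by radiation type and bars means of 9 runs. Of the 30 genes, 28 had a mean below 0 in mock-irradiated cells, from -1.34 for HSPA1A, and HSPB1 and CRYAB had means above 0 in both panels.

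The rise that preceded this step was spread over several hours. At 1 h no gene was called in mock-irradiated cells against the reference, where 0.546% of all tested probes were, and 12 of 30 lay above 0. CHORDC1 was at -1.0 in the lowest run, -0.64 in the median run and 0.17 in the highest (mean -0.50, adjusted p = 0.087), and it was the single gene called when the run γ 09C, its highest, was left out. HSF1, dim at a mean log2 signal of 7.07, was at 0.22 ± 0.24 (adjusted p = 0.14).

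At 4 h, 7 of the 30 genes were higher than in the reference, where 6.27% of all tested probes were, and 1 was lower, where 5.52% were. With arrays scaled to a common median none was called, and 72.0% of the probes called over the whole array were then higher, against 53.2% in the main setting. CCT5 was above 0 in 9 of 9 runs, from 0.04 to 0.68 (mean 0.33, adjusted p = 0.0023), and CCT6A and CCT2 had means of 0.31 and 0.32. DNAJA1 was at 0.53 ± 0.57 (adjusted p = 0.010), HSPA8 at 0.52 ± 0.59 (adjusted p = 0.037), BAG3 at 0.23 ± 0.24 and HSF1 at 0.22 ± 0.26. CCT8 was the 1 lower gene, at -0.33 in the lowest run and -0.05 in the highest (mean -0.17, adjusted p = 0.034). The count of 8 fell to between 4 and 5 when 56Fe 08C, 56Fe 09C, 28Si 09A or 28Si 09C was left out, and to 1 without the run as a block.

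Between 1 h and 4 h, 7 genes rose and none fell, where 3.64% of all tested probes rose and 2.87% fell. CHORDC1 had the largest of these steps at 0.85 (adjusted p = 0.00012). DNAJA1 rose by 0.67, HSPH1 by 0.62, HSPA1B by 0.61, HSPA8 by 0.61, HSPA1A by 0.53 and CCT5 by 0.37. Only CHORDC1 was called when arrays were scaled to a common median, where 77.8% of the called probes were higher, against 55.9% in the main setting. Leaving out 56Fe 09C, 28Si 09A, 28Si 09C or γ 08C left 4 genes called.

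Between 4 h and 12 h, 5 genes rose and none fell, where 2.97% of all tested probes rose and 2.9% fell. HSPA1A rose by 0.67, HSPA4L by 0.58, HSP90AA1 by 0.51, FKBP4 by 0.38 and CCT8 by 0.22, with adjusted p-values between 0.0012 and 0.019. The step of HSPA8 between 4 h and 12 h did not pass the test, and its difference from that of HSPA1A was not tested. None was called with arrays scaled to a common median, where 28.4% of the called probes were higher, against 50.6% in the main setting. The count was 3 without 28Si 09C and 1 without the run as a block.

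At 12 h, 13 of the 30 genes were higher in mock-irradiated cells than in reference cells and none was lower, where 2.92% of all tested probes were higher and 2.49% lower (5.58% and 4.3% of the bright probes). Of the 30, 28 were above 0, with a median of 0.26 against -0.006 for all tested probes. HSPA1A was at 0.03 in the lowest run, 0.79 in the median run and 1.91 in the highest, above 0 in 9 of 9 runs, although levels in mock-irradiated and reference cells overlapped between runs (mean 0.87, 1.82-fold, adjusted p = 0.0033). CHORDC1 and HSPA1B were also above 0 in 9 of 9 runs, with means of 0.61 and 0.52 (adjusted p = 0.0099 and 0.030). HSPH1 at 0.74, HSPA8 at 0.70 and HSP90AA1 at 0.60 were above 0 in 8 of 9 runs each.

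The other 7 genes called at 12 h were DNAJA1 at 0.49, HSPE1 at 0.48, FKBP4 at 0.46, CCT3 at 0.45, HSPA4L at 0.40, BAG3 at 0.35 and CCT7 at 0.27. BAG3 had the smallest adjusted p of all 30, at 0.0026, with 8 of 9 runs above 0 and γ 09C at -0.15. Of the 13, 11 also fell between 12 h and 24 h, and HSPA4L and CCT7 did not pass that test. Since the same 12 h samples enter both tests, this overlap is not independent support for a rise and fall. The call at 12 h depended on the setting. It fell to 3 without 56Fe 08C, to 4 without 56Fe 09C or 28Si 09C and to 7 without γ 08C, and to 0 with arrays scaled to a common median or without the run as a block, with 26 and 28 of 30 genes still above 0.

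At 24 h no gene was called against the reference, where 0.567% of all tested probes were. HSPA8 was at -0.48 ± 0.64 and HSPA1A at -0.48 ± 0.73, each below 0 in 7 of 9 runs (adjusted p = 0.19 and 0.18), and HSPB1 was at 0.54 ± 0.68 (adjusted p = 0.089). With the chip as a random block, where repeat arrays of a sample counted separately, 3 genes were called at 24 h. Over all comparisons in the main setting, CCT4, DNAJB1, DNAJB4, DNAJB6, HSP90AB1, SERPINH1 and TCP1 were never called.

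The runs differed in the size of the rise. The median over the 30 genes in mock-irradiated cells at 12 h was 0.52, 0.46 and 0.28 in the runs 56Fe 09C, 08C and 08A, 0.46, 0.26 and 0.07 in 28Si 09C, 09A and 09B, and 0.40, 0.21 and -0.04 in γ 08C, 09A and 09C. The run γ 09C stood apart, with medians of -0.02, -0.06, -0.04 and -0.33 at 1, 4, 12 and 24 h, and with 12 of 30 genes above 0 at 12 h and 5 at 24 h. The earlier steps differed in sign between runs: the median step between 1 h and 4 h was -0.05 in 56Fe 08A and -0.08 in γ 09C, against 0.40 in 56Fe 09C, and that between 4 h and 12 h was -0.03 in 28Si 09B and above 0 in the other 8 runs. The median step between 12 h and 24 h was below 0 in all 9 runs, at -0.45 to -0.14.

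**Figure D3:**
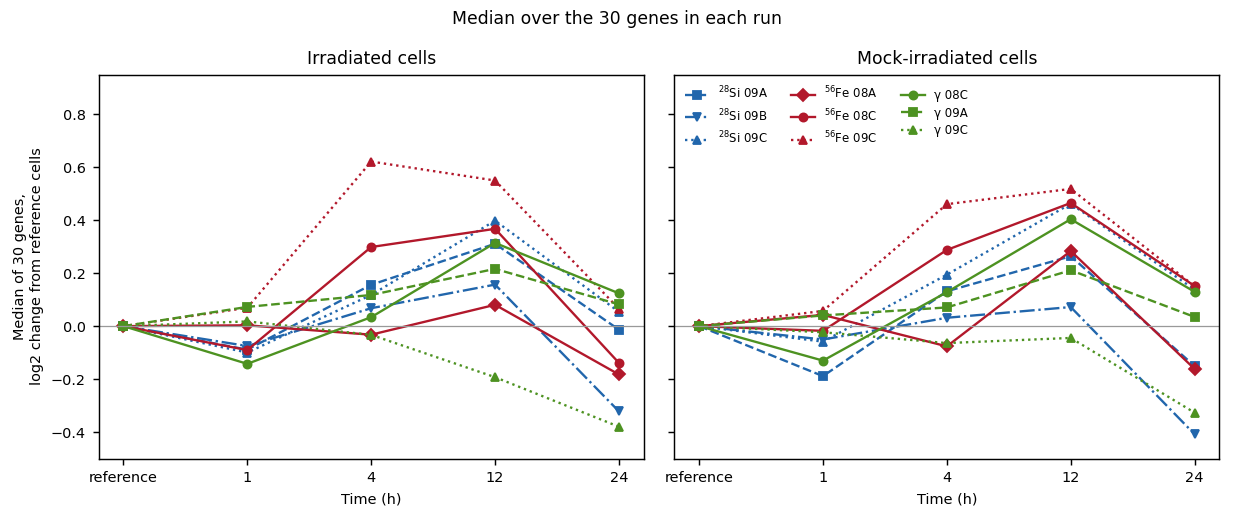
Median change of 30 genes from reference cells (y axis, log2) at each time (x axis, h, not to scale) in each of 9 runs, in irradiated cells (left) and mock-irradiated cells (right). At 12 h the medians lay between -0.19 and 0.55 in irradiated cells and between -0.04 and 0.52 in mock-irradiated cells, with γ 09C lowest in both.

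Irradiated cells were set against the same reference cells. Over the 4 times, 16 of the 30 genes differed from the reference, where 19.4% of all tested probes did, against 19 genes in mock-irradiated cells. The count was 26 with the chip as a random block and 10 without the run as a block. The chip setting took single arrays as observations, so repeat arrays and both doses of a run counted separately. Since both comparisons used the same reference cells, their values are given side by side only. In irradiated cells at 12 h, 26 of 30 genes lay above 0 in the 56Fe runs (median 0.32), 28 in the 28Si runs (0.23) and 26 in the γ-ray runs (0.14). In the mock-irradiated cells of these runs 27 (0.41), 24 (0.30) and 27 (0.15) did, in the same order of runs. The step of HSPA1A between 12 h and 24 h was -1.27 ± 0.60 in irradiated cells and -1.34 ± 0.62 in mock-irradiated cells. That of HSPA8 was -1.04 ± 0.44 in irradiated cells and -1.18 ± 0.30 in mock-irradiated cells, and that of HSPH1 was -0.94 ± 0.41 in irradiated cells and -0.97 ± 0.38 in mock-irradiated cells. DNAJA1 followed, at -0.69 ± 0.38 in irradiated cells and -0.86 ± 0.35 in mock-irradiated cells. The ranges over runs overlapped for each of these genes. HSPB1 moved by 0.41 ± 0.52 in irradiated cells and by 0.58 ± 0.41 in mock-irradiated cells.

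The response to radiation itself was read as the log2 ratio of irradiated to mock-irradiated cells of the same run and time, averaged over both doses, or at 1 Gy alone for 56Fe 08A at 12 h. No heat shock gene was called as responding to any radiation type by limma's F test over the 4 times. The thresholds were an adjusted p under 0.01 and a change above 1.3-fold. Of all tested probes, 0.00411% (1 probe) were called for 56Fe, 0% for 28Si and 0.00411% (1 probe) for γ-rays. With almost no probe called on the whole array, a missed call does not show that a response was absent. At an unadjusted p under 0.05, 1090, 2350 and 1573 of all probes passed, and 2, 3 and 1 of the 30 genes. The median ratio over the 30 genes lay between -0.08 and 0.06 in the 12 combinations of radiation type and time, and single genes had mean ratios between -0.28 and 0.31. The smallest adjusted p-values were 0.96 for CCT8 after 56Fe, 0.25 for STIP1 after 28Si and 0.60 for HSPE1 after γ-rays. STIP1 had ratios of 0.50, 0.29 and 0.12 at 1 h in the 3 28Si runs, all above 0.

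**Figure D4:**
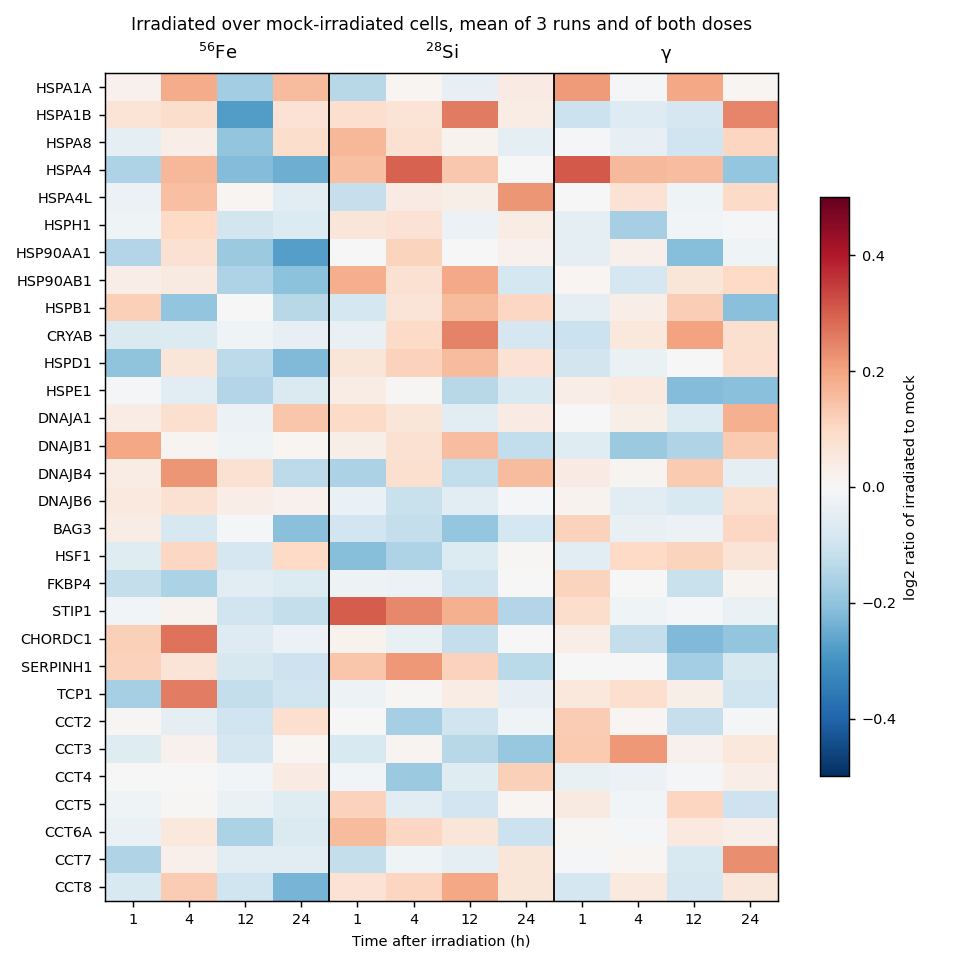
Mean log2 ratio of irradiated to mock-irradiated cells (colour scale, log2) for 30 genes (rows) at 1, 4, 12 and 24 h (columns) after 56Fe, 28Si and γ-rays, each the mean of 3 runs and of both doses, except that 56Fe 08A at 12 h is 1 Gy alone. The means lay between -0.28 and 0.31, and HSPE1 was below 0 at 12 h after all 3 radiations.

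Over all 9 runs together, no heat shock gene was called at 1, 4, 12 or 24 h at an adjusted p under 0.05, where 0%, 0.0534%, 0.0945% and 0.0123% of all tested probes were. At an unadjusted p under 0.05, 831, 1239, 2152 and 1378 probes passed, and 0, 2, 3 and 3 of the 30 genes. HSPE1 came closest. At 12 h its ratio was -0.10, -0.12 and -0.21 in the 56Fe runs 08A, 08C and 09C, -0.24, -0.14 and -0.04 in the 28Si runs 09A, 09B and 09C, and -0.18, -0.16 and -0.31 in the γ runs 08C, 09A and 09C. It was below 0 in 9 of 9 runs, with a mean of -0.17 ± 0.08 (adjusted p = 0.10). With the higher dose alone the mean was -0.22 and the adjusted p 0.019, the one setting in which a heat shock gene was called. The adjusted p lay between 0.019 and 1 over all alternatives, and the mean was -0.05 with arrays scaled to a common median. At 24 h, HSPE1 was at -0.12 and below 0 in 8 of 9 runs (adjusted p = 0.69).

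By the chosen probes, next to HSPE1 at 12 h were CCT2, with a ratio of -0.11 ± 0.11 that was below 0 in 7 of 9 runs (adjusted p = 0.32), and CRYAB, with 0.14 ± 0.13, above 0 in 7 of 9 runs (adjusted p = 0.39). Other probes of a gene did not always give like ratios at 12 h. A second TCP1 probe was at -0.25 and the chosen one at -0.02. The other HSPD1 probes were at -0.23 and -0.01 and the chosen one at 0.01. Those of HSPA8 were at -0.07 and -0.09, and those of CCT7 at -0.07 and -0.06. The genes that moved most in the mock course showed mean ratios near 0. HSPA1A was at -0.01 ± 0.25 at 12 h and 0.07 ± 0.51 at 24 h, and HSPA8 at -0.09 ± 0.18 and 0.05 ± 0.22. At 12 h after 56Fe, 27 of the 30 genes had a mean ratio below 0, with a median of -0.08, where 51.4% of all tested probes were above 0. This rested on the runs 08A, with 1 Gy alone, and 08C, with 6 and 8 of 30 genes above 0, while 17 were above 0 in 09C.

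The 3 radiation types were then set against each other. No heat shock gene was called as differing between them over the 4 times or at 1, 4, 12 or 24 h. The share of all tested probes called was 0% in each of these 5 comparisons, so a missed call does not show equal responses. At an unadjusted p under 0.05, 1509 probes and 1 of the 30 genes passed over the 4 times, and 1017, 1271, 1756 and 1417 probes with 0, 0, 1 and 2 genes at the single times. CCT8 had the smallest p at 12 h, with ratios of 0.17, 0.07 and 0.34 after 28Si, -0.19, -0.16 and 0.05 after 56Fe and -0.03, -0.02 and -0.21 after γ-rays (adjusted p = 0.63). HSPA1B followed, with 0.40, 0.23 and 0.16 after 28Si, -0.49, -0.18 and -0.16 after 56Fe and -0.15, -0.16 and 0.05 after γ-rays (adjusted p = 0.71). For both genes the 28Si runs did not overlap the 56Fe and γ runs, and with 3 runs per type neither passed over all probes.

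Dose was compared within each radiation type, as the higher minus the lower dose in the same run and time. For γ-rays at 3 and 1 Gy, 2 of the 30 genes differed over the 4 times, HSPD1 and CCT8, where 0.821% of all tested probes did (5.85% of the bright probes). HSPD1 and CCT8 are themselves bright, at mean log2 signals of 12.7 and 12.6, and 2 of 30 is near the share of the bright probes. Both differences lay mainly at 24 h. At that time the 3 and 1 Gy arrays were on the same chip in 08C and on different chips in 09A and 09C. In 09A and 09C, dose and chip cannot be told apart. HSPD1 had ratios to mock of -0.01, 0.00 and -0.63 at 3 Gy and of 0.79, 0.31 and 0.04 at 1 Gy in the runs 08C, 09A and 09C. The difference between the doses was below 0 in all 3 runs, at -0.79, -0.31 and -0.67 (adjusted p = 0.0054 over the 4 times), and the ratios at the 2 doses did not overlap. CCT8 had ratios of -0.06, -0.06 and -0.49 at 3 Gy and of 0.41, 0.35 and 0.20 at 1 Gy, which likewise did not overlap, with differences of -0.47, -0.41 and -0.70 (adjusted p = 0.011).

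Neither call held in every setting. HSPD1 and CCT8 were both lost without γ 08C and without γ 09C, in the authors' value table, with arrays scaled to a common median and with the chip as a random block, while without γ 09A the count was 4, with CCT6A and HSPA8 added. CCT8 alone was lost with the smaller normexp offset. The count also fell with the mean of all probes of a gene. HSPD1 has 3 probes and CCT8 has 1, so of these genes averaging changed the values of HSPD1 only. The 2 other probes of HSPD1 were much dimmer, at mean log2 signals of 7.51 and 6.29 against 12.7, but lay above the dim-probe filter.

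The dose difference at 24 h ran through most of the γ-ray values. Of the 30 genes, 22 had a difference below 0, with a median of -0.20 (all tested probes -0.01). At 3 Gy, 10, 16 and 10 of 30 genes were above mock in the runs 08C, 09A and 09C, and at 1 Gy 21, 20 and 24. CCT7 had differences of -0.94, -0.46 and -0.32 (adjusted p = 0.089 over the 4 times). HSPE1 ran the other way, at 0.89, 0.42 and 0.21, with ratios to mock of 0.03, 0.08 and 0.02 at 3 Gy and -0.86, -0.34 and -0.19 at 1 Gy (adjusted p = 0.17). HSPE1 and HSPD1 are neighbours on chromosome 2 and their products form a single complex. The 1 Gy sample of γ 08C also held the lowest values of HSPB1 and HSPE1 among the γ-ray samples at 24 h, at -1.52 and -0.86.

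**Figure D5:**
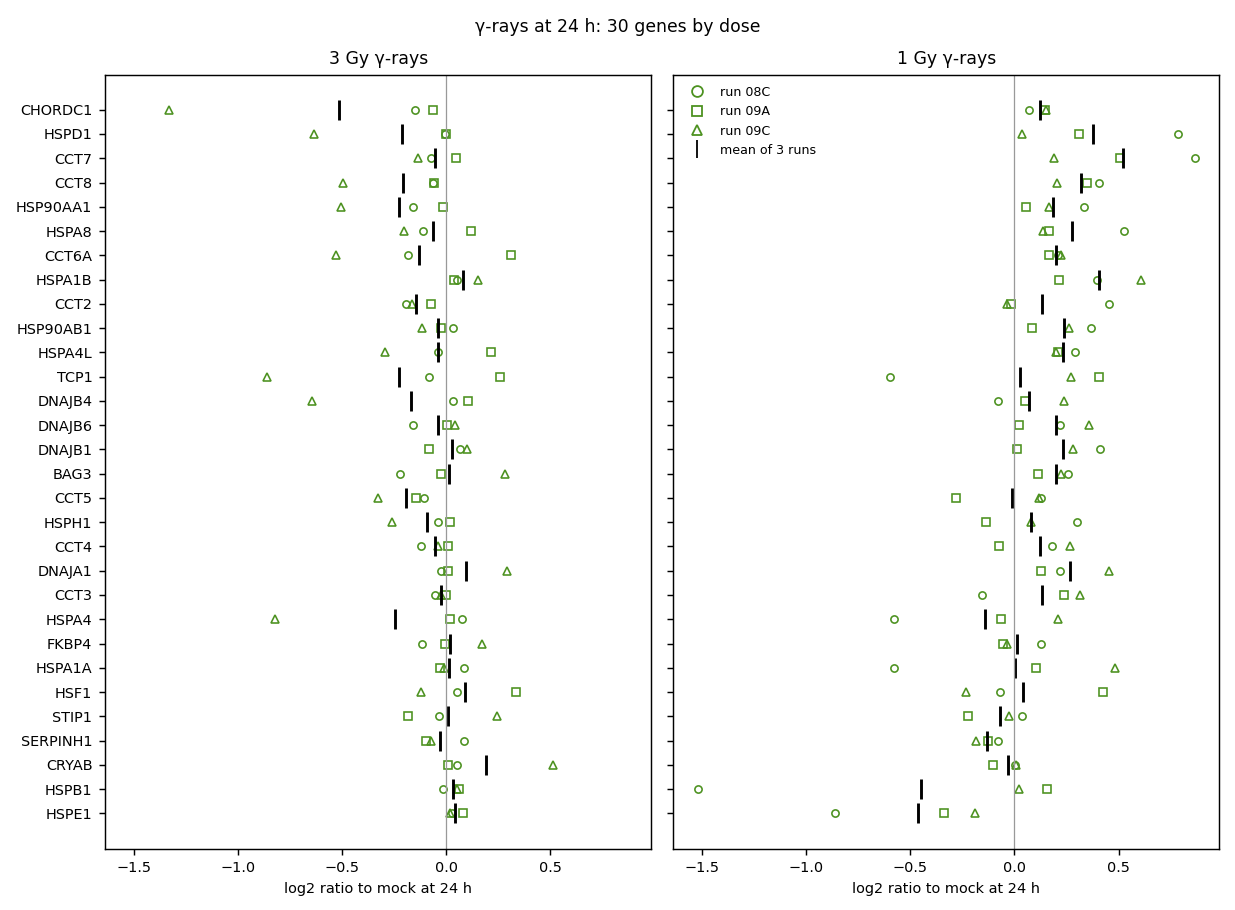
Log2 ratio to mock at 24 h (x axis) of 30 genes (y axis, ordered by the mean difference between doses) at 3 Gy (left) and 1 Gy (right) of γ-rays; symbols are the 3 runs and bars their means. At 3 Gy 10, 16 and 10 of 30 genes lay above 0 in the 3 runs, and at 1 Gy 21, 20 and 24.

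For the ions the doses of 1 and 0.5 Gy were compared. After 28Si no heat shock gene was called, where 0.678% of all tested probes were. HSPE1 came closest, with ratios to mock at 12 h of -0.29, -0.46 and -0.41 at 1 Gy and of -0.18, 0.19 and 0.33 at 0.5 Gy, and differences of -0.11, -0.64 and -0.74 (adjusted p = 0.082). The doses did not overlap at 12 h, and HSPE1 was called without the run 28Si 09A. In every 28Si run the 1 and 0.5 Gy arrays at 12 h were on different chips, so dose and chip cannot be told apart. After 56Fe none was called, where 0% of all tested probes were. BAG3 came closest, with ratios at 24 h of -0.04, -1.45 and -0.23 at 1 Gy and of 0.37, 0.07 and 0.02 at 0.5 Gy, in the runs 08A, 08C and 09C (adjusted p = 0.25). The doses did not overlap, and 08C held by far the lowest value. Here too, the 1 and 0.5 Gy arrays at 24 h were on different chips in every run, and dose and chip cannot be told apart. BAG3, HSPA1B and STIP1 were called without the run 56Fe 09C, and BAG3 alone with the chip as a random block. At an unadjusted p under 0.05, 2004, 2814 and 3179 probes passed for 56Fe, 28Si and γ-rays, and 2, 4 and 9 of the 30 genes.

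Other chaperone genes gave the setting for these results. The chaperones of the endoplasmic reticulum moved the other way in mock-irradiated cells: at 12 h 7 of 13 were lower than in the reference and none was higher (2.49% and 2.92% of all tested probes), and between 12 h and 24 h 5 rose and none fell (5.92% and 7.04% of all tested probes). HSPA5, the HSP70 of this compartment, was at -1.31 at 12 h (adjusted p = 0.0041) and rose by 1.22 afterwards (adjusted p = 0.0019), in the same hours in which HSPA1A fell. HYOU1, its exchange factor, was at -0.82 and then rose by 0.57, and PDIA4, a disulfide isomerase, was at -0.56 and then rose by 0.48. HSP90B1, the HSP90 of this compartment, was at -0.53 at 12 h. The values at 12 h and the steps after it again share the 12 h samples. DNAJB9, a J protein of HSPA5, was lower at 1, 4 and 12 h, at -0.81, -1.04 and -0.57, and was not called at 24 h. At 12 h 12 of the 13 were below 0 in the main setting and 12 or 13 in each alternative, but none was called with arrays scaled to a common median or without the run as a block. The 7 called at 12 h became 3 or 4 without 56Fe 08C, 56Fe 09C, 28Si 09C or γ 08C, and the 5 that rose afterwards became 3 without 56Fe 08A, 56Fe 09C, 28Si 09C, γ 08C or γ 09A, 3 without the block and 0 with common-median scaling.

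Of 12 further co-chaperones, 4 were higher at 12 h (PPID, HSPBP1, CDC37 and HSPA14) where 2.92% of all tested probes were, and between 12 h and 24 h 4 fell (PPID, HSPA14, CDC37 and SUGT1) while FKBP5 rose by 0.46, where 7.04% of all tested probes fell and 5.92% rose. Of 7 tested mitochondrial chaperones and proteases, 3 changed over the course, where 22.6% of all tested probes and 30.7% of the bright ones did. GRPEL1, the exchange factor of the mitochondrial HSP70, was at 0.55 at 4 h and fell by 0.51 by 12 h. Of 10 further heat shock family genes, 3 changed, near the share of 22.6% over all tested probes, among them HSPA6, an HSP70 induced by strong stress, at 0.41 at 4 h and falling by 0.40 by 12 h at a low signal of 6.55. None of the 6 subunits of prefoldin, which hands actin and tubulin to TRiC, changed over the course. No gene of these lists was called between irradiated and mock-irradiated cells at any time or after any radiation type. Between 3 and 1 Gy of γ-rays, SDF2L1, CALR and PFDN6 differed. They were 2 of 13 endoplasmic reticulum chaperones and 1 of 6 prefoldin subunits, and no gene of the other lists differed. Of all tested probes 0.821% differed, and 5.85% of the bright ones. These 3 calls were not followed through the alternatives.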

How the data were processed

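The authors hybridized biotin-labelled cRNA to Illumina HumanWG-6 V2 BeadChips and extracted the signals with BeadStudio. The deposited bead signals are intensities on a linear scale, not normalized, and carry the main analysis. The authors' value table, deposited as log2 values after their background subtraction and quantile normalization, served as an alternative. The background was corrected by normexp (offset 50), arrays were quantile-normalized, log2 values were taken, repeat arrays of a sample were averaged and probes at or below the median probe (6.23) were left out, which kept 24350 of 48701. Linear models were fitted with limma 3.58.1 in R 4.3.3 with Benjamini-Hochberg adjustment over all tested probes. Responses were paired with the mock sample of the same run and time (24 residual and 8.31 prior degrees of freedom). The course was fitted with the run as a block. Samples were paired by radiation type, campaign code and time. Deviations of paired irradiated and mock samples from their means over runs correlated at 0.46 to 0.89 over 36 pairs. What the paired samples shared was not tested. The chips numbered 35, and an alternative took the chip as a random block. That alternative took single arrays as observations, so repeat arrays of a sample and both doses of a run counted separately.

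Probes were named through the platform annotation and current RefSeq symbols. Values were given for the genes called in any comparison or among the 3 smallest p-values of a comparison, and the others by range and counts. The genes and lists were chosen with earlier results of these data known. The number of arrays limits precision. Changes are on the log2 scale after the offset, which understates those of dim genes. The scripts were tested on simulated data. Alternatives are the background correction, scaling, filter, probe choice, variance prior, blocks, dose and leaving out each run.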

Additional observations from a re-analysis of the deposited data

Results flagged for a closer look

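A single run stood far from the other 8 in 2 of 45 groups of 9 runs examined, about as many as chance gives, since about 1 group in 20 is marked by chance. CCT2 fell by 1.14 on the log2 scale between 12 h and 24 h in mock-irradiated cells of 56Fe 09C, where the steps of the other 8 runs lay between -0.68 and -0.25. HSPB1 was 1.12 higher than in reference cells in the mock-irradiated cells of γ 09C at 12 h, where the other 8 runs lay between -0.79 and 0.12.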

How the results depend on the processing

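The direction of the mock course held in each alternative run, with 26 to 29 of 30 genes above 0 at 12 h and 28 below 0 in the step between 12 h and 24 h, but the counts called did not. With arrays scaled to a common median, the counts were 7 of 19 over the course, 0 of 8 at 4 h, 0 of 13 at 12 h, 1 of 7 between 1 h and 4 h, 0 of 5 between 4 h and 12 h, 4 of 17 between 12 h and 24 h and 0 of 2 for the γ-ray doses. Without the replicate block (the run, which pairs the samples), they were 12 over the course, 1 at 4 h, 0 at 12 h, 1 between 4 h and 12 h and, in irradiated cells, 10 of 16. Leaving out 1 run at a time gave 16 to 20 over the course, 0 to 1 at 1 h, 4 to 10 at 4 h, 3 to 17 at 12 h, 4 to 9 between 1 h and 4 h, 3 to 7 between 4 h and 12 h, 13 to 17 between 12 h and 24 h, 13 to 19 in irradiated cells, and 0 to 3, 0 to 1 and 0 to 4 for the doses of 56Fe, 28Si and γ-rays. With the chip as a random block, 3 genes were called at 24 h, 26 in irradiated cells, 1 for the 56Fe doses and 0 for the γ-ray doses. In that setting single arrays were the observations, so repeat arrays counted separately. The γ-ray doses gave 1 with a normexp offset of 16, 0 in the authors' value table and 1 with the mean of all probes of a gene, which gave 1 at 1 h. The higher dose alone gave 1 against mock at 12 h. The causes were not tested. The ratio of STIP1 to mock at 12 h changed sign without 56Fe 08C (-0.0014), 28Si 09A (-0.0045) or γ 09C (-0.019).

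The other counts were unchanged, all at 0. The alternative restricted to irradiated and mock arrays on the same chip was not run, since some combinations of radiation type and time held no such pair, and neither was the filter on detection p-values, which the bead signal table used here does not hold.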
